A study of Ulmus minor with 54 samples.

Results

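In leaves of the field elm, Ulmus minor, 237477 assembled sequences were counted, and 57 transcripts among them are described here. These stood higher at the 6 h harvest than at the 1 h and the 24 h harvest in 2 separate sets of untreated leaves. The 57 transcripts also stayed within a bound of 0.8 on their log2 ratios between insect treatments. They were chosen from measured levels in counts-per-million (CPM), scaled over 53 libraries with edgeR's TMM factors and summarised as the median of each group of 3 libraries. A member had a median of 2 to 300 CPM over the 18 untreated libraries (C and CC), and a log2 ratio, with 0.5 CPM added to both medians, of at least 1 for 6 h over 1 h and for 6 h over 24 h in both C and CC. Its ratios between treatments (P over C at 1 and 24 h, CT over CC and PT over PC at 1, 6 and 24 h) lay between -0.8 and 0.8. The rule allowed 200 members and 57 met it. Hour ratios in C and CC, and the treatment ratios just listed, are therefore given as a description of the choice and not as results. PC and PT levels entered the rule only against each other at the same hour. Their ratios between hours were not used, and the tests rest on these.

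Every leaf came from trees of 1 clone, propagated in vitro and grown in a greenhouse to an age of 15 to 19 weeks, so the libraries hold 1 genotype. Libraries were made from polyadenylated RNA of leaf tissue near the treated site. P leaves had a strip of epidermis scratched off and covered with oviduct secretion of gravid elm leaf beetle females, which stands in for eggs, and were harvested 1, 6 and 24 h later, as were untreated C leaves; P and C form the priming set. In the triggering set, harvested 1, 6 and 24 h after larvae were set on the fed leaves, PT leaves had carried simulated eggs for 7 days before 5 neonate larvae fed on them, and CT leaves had larvae alone. PC leaves had the simulated eggs of 7 days before and no larvae, and CC leaves had neither. C and CC leaves were not scratched, so the effects of scratch and secretion cannot be told apart. Each of the 18 groups had 3 libraries, numbered 1, 2 and 3 except in CC at 6 h, where they are 1, 3 and 4. Whether the 3 were taken on different trees is not in the labels. The p-values therefore rest on the spread between libraries, which may be technical.

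Plants keep an internal clock, built of transcription factors that are made at different times of day and repress or activate one another. Light and temperature set this clock and also act on genes directly, so that transcripts of photosynthesis, sugar use, growth and defence rise and fall in a leaf over each day. Wounding and insect feeding change many leaf transcripts as well. The labels give hours after the start of a treatment and no clock time, so the time of day and the hours since the start cannot be told apart here. The 1 h and 24 h harvests lie close to a full day apart, and the 6 h harvest lies between them. In whole leaf tissue, fewer cells of a type and less RNA per cell cannot be told apart either. The deposited table gives identifiers without gene names. Transcripts are thus called by identifier, no function is given to any of them, sequences were not used here, and no leaf marker genes could be checked.

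Total counts ran from 28916592 to 93878963 in 53 libraries and came to 14667334 in CT 24 h replicate 1. That library had 80.3% of its reads in its 10 most abundant sequences, and both the choice of members and the tests leave it out, so CT at 24 h rests on 2 libraries. All 57 members passed the filter on low counts of the tests, and the lowest count of any member in any of the 53 libraries was 8. Of the members 20 were named as scaffolds and 37 as contigs. The share of scaffolds was 35.1%, against 43.9% among the 20167 transcripts with the same level range and treatment bounds at any hour pattern, and 8.76% among all sequences.

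In untreated leaves CC was the narrower condition. Within the level range and treatment bounds, 460 transcripts met the hour ratios in C and 93 in CC. The 57 that met both are 12.4% of the C list and 61.3% of the CC list. Turned round, with every hour ratio at or below -1, the same rule gave 562 transcripts in C, 465 in CC and 316 in both. Lows at 6 h were thus the more numerous under this rule. The treatment bounds held C at 1 and 24 h but CC at 1, 6 and 24 h. The level range was set on a median over all hours, so it acts differently on highs and lows. How far these counts reflect the rule was not tested. Without the treatment bounds, 209 transcripts met the level range and the hour ratios. The smallest of the 4 hour ratios was 1.00 to 2.43 over the members, with a median of 1.21, and 12 members reached 1.5. The last 2 inside had 1.00 and 1.00, the first 2 outside 0.999 and 0.996. The largest treatment ratio in size was 0.799 inside the bound of 0.8, and 0.802 in the nearest transcript outside it.

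**Figure D1:**
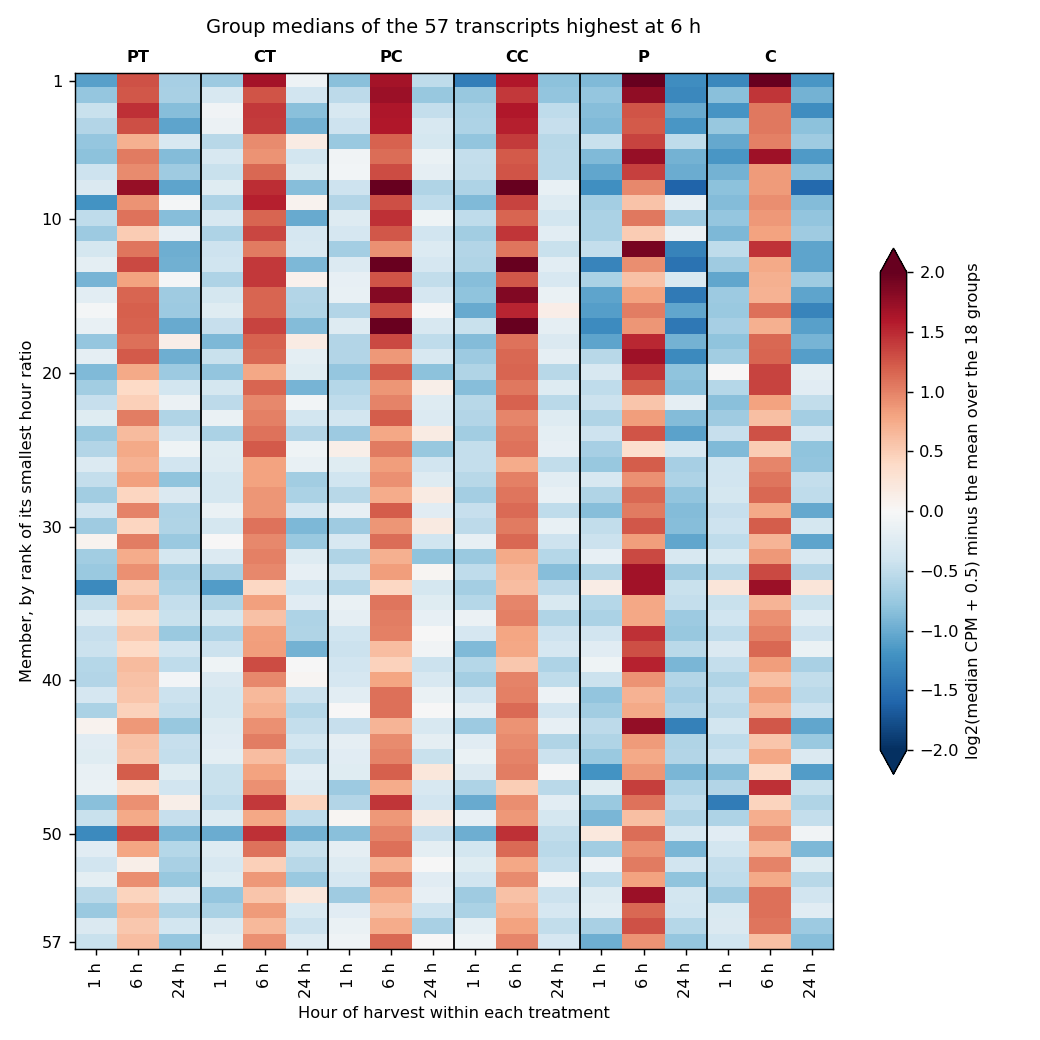
Group medians of each member (rows, ranked by its smallest hour ratio) in the 18 groups (columns, by treatment and hour of harvest), as log2(CPM + 0.5) minus the member's mean over groups. The 6 h columns are red in all 6 treatments; in C and CC the choice of members made them so.

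C610071 ranked first by its smallest hour ratio, 2.43. In PC leaves it stood at 6.04, 9.08 and 15.7 CPM at 1 h, at 46.1, 53.8 and 60.5 CPM at 6 h and at 10.7, 25.9 and 11.5 CPM at 24 h. In CC leaves its levels were 6.15, 5.67 and 8.16 CPM at 1 h, 37.5, 53.8 and 51.4 CPM at 6 h and 9.15, 28.1 and 6.43 CPM at 24 h. In both treatments every 6 h library was above every other, and 1 library of 24 h stood above its group. In C leaves it had 10.7, 6.29 and 6.49 CPM at 1 h, 69.1, 66.5 and 77.4 CPM at 6 h and 6.88, 7.16 and 9.52 CPM at 24 h.

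C449299 came next, with a smallest ratio of 2.18. In PC leaves its levels were 2.16, 3.05 and 3.68 CPM at 1 h, 14.5, 16.3 and 16.9 CPM at 6 h and 2.12, 8.30 and 2.54 CPM at 24 h. In CC leaves it stood at 2.52, 2.04 and 4.60 CPM at 1 h, 12.6, 13.2 and 16.5 CPM at 6 h and 2.46, 5.78 and 2.05 CPM at 24 h. For this transcript too the 6 h libraries lay apart from the rest, and replicate 2 was the highest of the 24 h libraries in PC as in CC.

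PC leaves entered the choice only through the bound on PT over PC at each hour, and their ratios between hours address whether the 6 h high also appears there. All 57 members had a positive fold change at 6 h against both other hours. At 6 h against 1 h, 37 of 57 members rose and 0 fell in the quasi-likelihood test of edgeR (p adjusted after Benjamini and Hochberg, threshold 0.05), where 0.881% of the 156137 tested transcripts rose and 1.91% fell. Among the other 20110 transcripts of the same level range and treatment bounds, 1.39% rose and 5.02% fell. At 6 h against 24 h, 21 of 57 members rose and 0 fell, where 0.439% of all tested transcripts rose and 1.42% fell. Of those of the same level range and bounds, 0.453% rose and 4.28% fell. Of the members 20 rose at 6 h against both hours, as did 0.212% of all tested transcripts. By DESeq2 all 57 fold changes were above 0 in both contrasts as well. With these signs no member could be called lower at 6 h by either test, at any p.

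The members' median log2 fold change in PC was 1.41 at 6 h against 1 h (0.76 to 2.43) and 1.15 against 24 h (0.51 to 2.15). Over all tested transcripts the medians were -0.03 and 0.01. In 56 of 57 members the lowest PC library of 6 h was above every PC library of 1 and 24 h, as in 3.9% of all tested transcripts. The exception, named after its values were seen, was C339291. Its PC levels were 4.90, 5.83 and 5.12 CPM at 1 h, 9.13, 12.4 and 13.02 CPM at 6 h and 2.72, 9.72 and 5.18 CPM at 24 h, so that only replicate 2 of 24 h reached into the 6 h range.

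**Figure D2:**
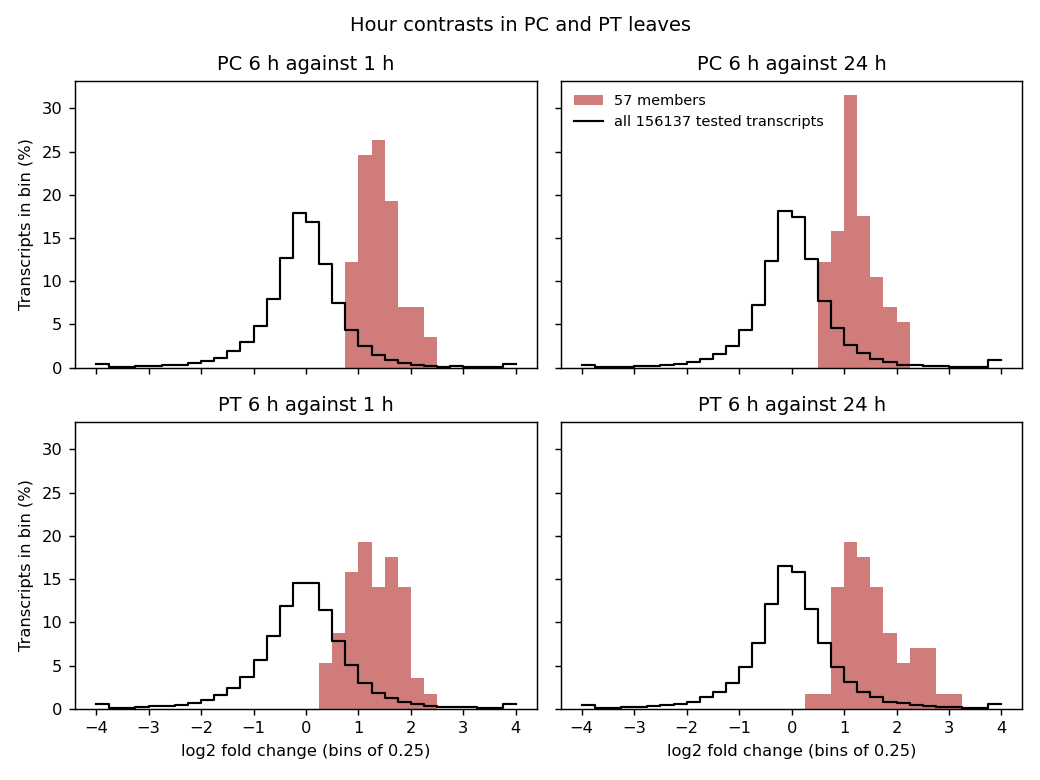
Log2 fold changes of the hour contrasts in PC and PT leaves, as the percentage of transcripts per bin of 0.25, for the 57 members (bars) and all 156137 tested transcripts (line); the outermost bins of the line also hold values beyond 4 in size. All bars lie above 0, with medians of 1.41 and 1.15 in PC and 1.33 and 1.45 in PT.

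Of the members called against both hours in PC, scaffold11035 had the lowest p in its weaker contrast. Its levels there were 4.22, 3.77 and 3.06 CPM at 1 h, 13.5, 15.5 and 15.8 CPM at 6 h and 3.98, 6.38 and 3.99 CPM at 24 h. No 6 h library overlapped with the others. The log2 fold change was 2.03 ± 0.24 (SE) at 6 h against 1 h (edgeR, adjusted p = 3.38e-05) and 1.64 ± 0.23 (SE) at 6 h against 24 h (edgeR, adjusted p = 2.45e-04).

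C604921 followed. In PC it had 43.7, 55.5 and 51.7 CPM at 1 h, 87.2, 111 and 109 CPM at 6 h and 41.4, 65.8 and 46.6 CPM at 24 h. Its rise was smaller but its libraries were close together. The log2 fold changes were 1.04 ± 0.18 against 1 h and 1.00 ± 0.18 against 24 h (SE; edgeR, adjusted p = 0.00134 and 0.00194). C610071, the first by rank, had 2.39 ± 0.42 and 1.74 ± 0.41 (SE; edgeR, adjusted p = 0.00154 and 0.0198).

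The members with the smallest PC responses were C471755 and C598797. C598797 stood at 11.4, 15.5 and 33.6 CPM at 1 h, 44.5, 44.4 and 47.7 CPM at 6 h and 29.3, 40.4 and 22.5 CPM at 24 h. The 6 h libraries were again the highest, but replicate 3 of 1 h and replicate 2 of 24 h came close to them. The log2 fold changes of 1.18 ± 0.45 against 1 h and 0.57 ± 0.44 against 24 h did not pass (SE; edgeR, adjusted p = 0.171 and 0.620). C471755 behaved alike, with 1.77, 2.32 and 4.72 CPM at 1 h, 5.85, 6.44 and 7.19 CPM at 6 h and 4.17, 5.53 and 4.02 CPM at 24 h. Its log2 fold changes were 1.15 ± 0.50 and 0.51 ± 0.50 (SE; edgeR, adjusted p = 0.253 and 0.716).

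**Figure D3:**
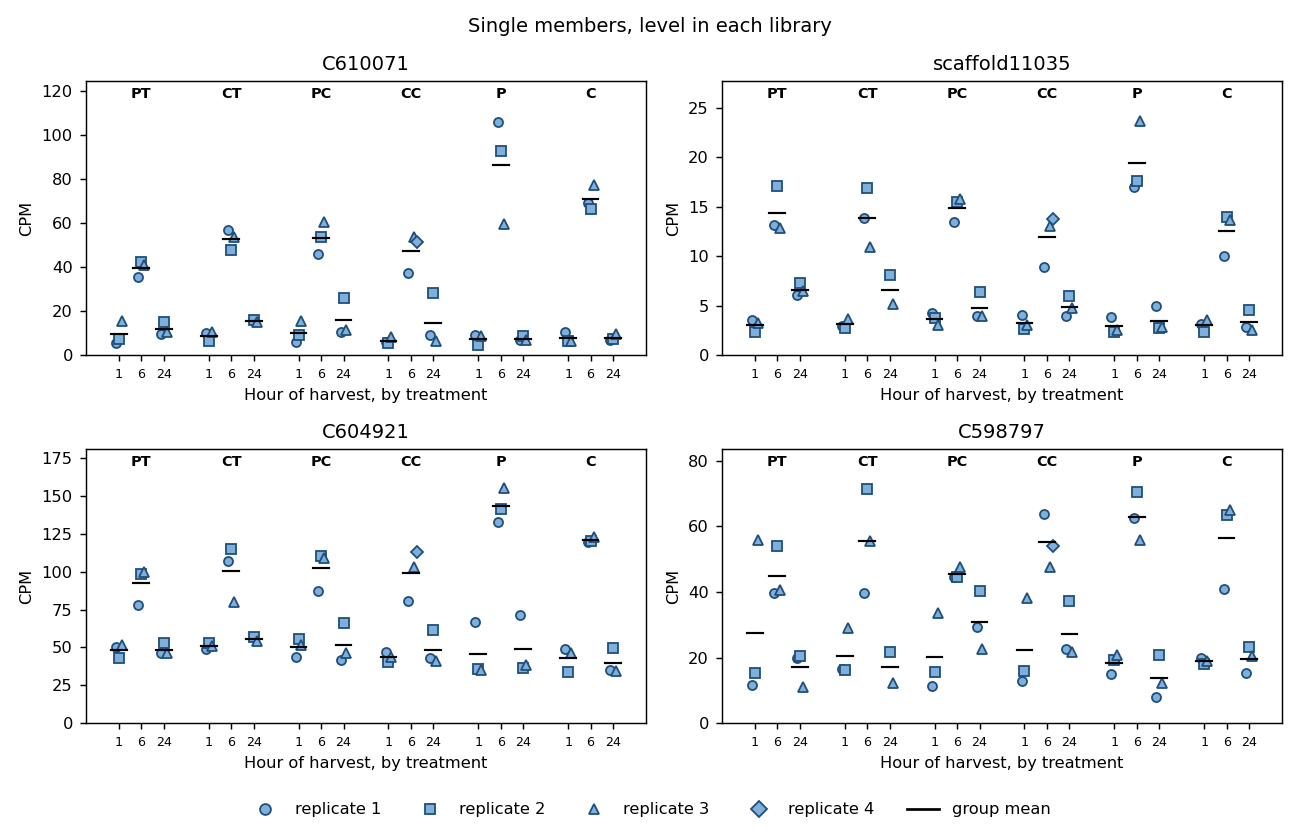
Level (CPM) of 4 members in each library, by treatment and hour of harvest, with points for libraries (shape gives the replicate number) and bars for group means. In the panel of C598797, replicate 3 of 1 h stands at 33.6 CPM for PC leaves and at 38.1 CPM for CC leaves, above the other 1 h libraries of both groups (11.4 to 15.9 CPM), while C604921 shows no such gap at 1 h.

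How many members passed in PC depended on the libraries, while the sign did not. Without PC replicate 1 or 2 the count at 6 h against 1 h was 12 and 11, with only the 2 compared groups in the fit 21, and with CT 24 h replicate 1 put back 23. At 6 h against 24 h the count was 2 without PC replicate 1 or 3, 11 with CT 24 h replicate 1, 42 with only the 2 compared groups and 38 by DESeq2's Wald test. In each of these fits all 57 fold changes stayed above 0.

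PC libraries cannot be taken as independent of the CC libraries behind the choice. Only same-numbered libraries were compared for this, with no pairs of different number beside them. At 1 h the deviations from the group mean of same-numbered PC and CC libraries, over 29183 transcripts, had a Pearson r of 0.618, 0.305 and 0.64 for replicates 1, 2 and 3. At 6 h it was 0.258 and 0.206 for replicates 1 and 3, and at 24 h -0.159, 0.262 and 0.294 for replicates 1, 2 and 3.

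PT leaves, with simulated eggs and then larvae, gave another reading, not independent of PC because the rule had kept PT within 0.8 of PC at each hour. Same-numbered PT and CC libraries also deviated together at 1 h, with a Pearson r of 0.537, 0.419 and 0.641 for replicates 1, 2 and 3, and PT and PC libraries with 0.668, 0.308 and 0.567. At 6 h against 1 h, 37 of 57 members rose and 0 fell in the same test of edgeR, where 3.46% of all tested transcripts rose and 4.58% fell, and of those of the same level range and bounds 4.25% and 9.46%. At 6 h against 24 h, 42 rose and 0 fell, where 2.95% of all tested transcripts rose and 3.57% fell, and of those of the same level range and bounds 3.35% and 7.33%. Of the members 34 rose against both hours, against 0.818% of all tested transcripts. In 16 members all 4 contrasts of PC and PT passed, against 0.0737% of all tested transcripts. DESeq2's Wald test called 47 and 50 members higher in PT. All 57 fold changes were above 0 in both PT contrasts by edgeR and by DESeq2, so no member could be called lower.

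The median log2 fold change of the members in PT was 1.33 against 1 h (0.41 to 2.25) and 1.45 against 24 h (0.39 to 3.13), beside -0.03 and -0.00 over all tested transcripts. In 41 of 57 members the lowest PT library of 6 h was above every PT library of 1 and 24 h, as in 3.87% of all tested transcripts. C452647 and C604921 led here. C452647 had 4.78, 6.04 and 9.69 CPM at 1 h, 15.8, 23.4 and 26.3 CPM at 6 h and 5.82, 6.14 and 4.22 CPM at 24 h, with no overlap between 6 h and the other hours. Its log2 fold changes were 1.68 ± 0.30 against 1 h and 2.04 ± 0.30 against 24 h (SE; edgeR, adjusted p = 6.62e-04 and 1.32e-04). C604921 had 0.93 ± 0.18 and 0.95 ± 0.18 (SE; edgeR, adjusted p = 0.00136 and 0.00121).

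C223139 and scaffold2851 were the lowest in PT. C223139 had 0.863, 1.45 and 4.83 CPM at 1 h, 2.42, 4.12 and 2.96 CPM at 6 h and 1.51, 2.00 and 0.751 CPM at 24 h. Replicate 3 of 1 h was the highest library of all, so that the groups overlapped. The log2 fold changes were 0.41 ± 0.50 and 1.17 ± 0.51 (SE; edgeR, adjusted p = 0.683 and 0.193), and without PT replicate 2 the first was -0.07. The transcript scaffold2851 had 2.29, 2.01 and 2.34 CPM at 1 h, 5.06, 4.50 and 5.58 CPM at 6 h and 2.67, 6.21 and 2.84 CPM at 24 h. It rose against 1 h (1.19 ± 0.27, SE; edgeR, adjusted p = 0.00566) and did not pass against 24 h (0.39 ± 0.27, SE; adjusted p = 0.462), where replicate 2 was above every 6 h library.

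In the PT libraries of 6 h a few sequences took much of the reads. Their 10 most abundant sequences took 58.5%, 27.02% and 34.3% of the reads in replicates 1, 2 and 3, against 14.8%, 9.62% and 6.82% at 1 h. At 24 h in PT the shares were 28.1%, 9.17% and 31.6%. High shares were not particular to PT. They reached 41.6% in CT 1 h replicate 2, 51.5% in CT 24 h replicate 3 and 43.2% in P 6 h replicate 3. Among the PT libraries of 6 h, the members' median level was lowest in replicate 1. With the 10 most abundant sequences of every library taken out, 38 and 42 members rose in PT, beside 37 and 42 in the main fit. How far the abundant sequences weighed on the members' levels was not tested. Without PT replicate 1 or 2 the count against 1 h was 18 and 9. Without PT replicate 3 that against 24 h was 13.

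P leaves stand between use and non-use. Their 6 h libraries had no part in the choice, but P at 1 and 24 h had been held within 0.8 of C, so their ratios are given with no test. The median log2 ratio of group medians over the members was 1.71 at 6 h over 1 h in P and 1.46 in C, and 1.87 at 6 h over 24 h in P and 1.56 in C. All 57 ratios were above 0 in P for both hours, and 51 members had both at or above 1, as had 2.49% of the 20167 transcripts of the same level range and bounds. At 6 h itself, P over C had a median of 0.16 over the members (-0.35 to 0.71), above 0 in 41 of 57, beside 0.01 over those 20167 transcripts. C610071 reached 106, 93.1 and 59.6 CPM in P at 6 h, against 69.1, 66.5 and 77.4 CPM in C, groups that overlap. CT leaves, tied to CC by the rule, had medians of 1.43 and 1.34 for 6 h over 1 h and over 24 h.

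**Figure D4:**
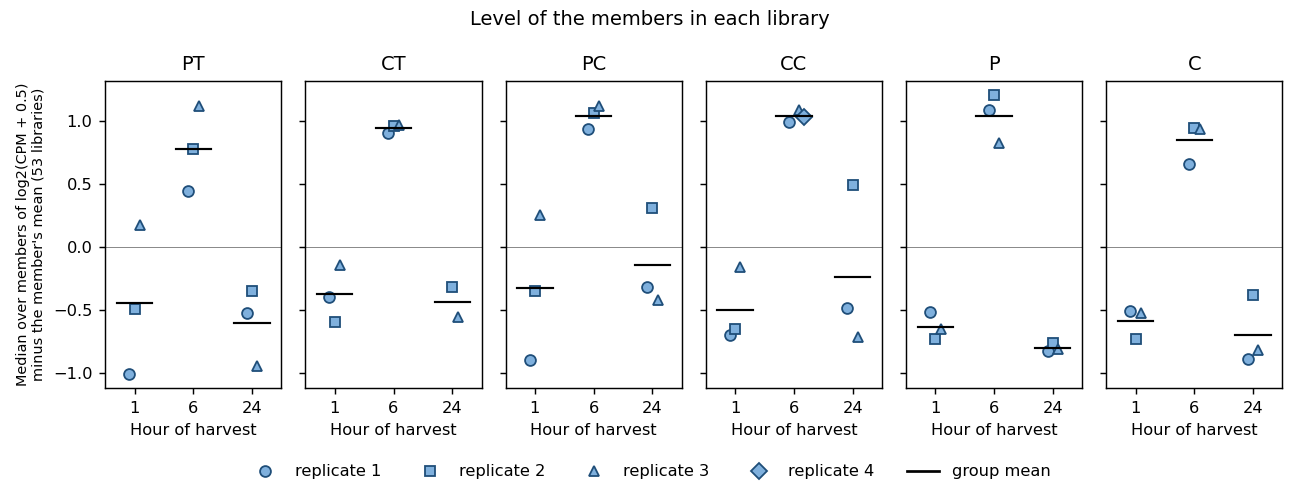
Median over the 57 members of log2(CPM + 0.5) minus each member's mean over 53 libraries (y axis), per library, by hour of harvest in each treatment; shapes give the replicate number and bars the group mean. The 6 h libraries lie between 0.44 and 1.21, and replicate 3 of 1 h in PC and PT and replicate 2 of 24 h in PC and CC lie above 0. In C and CC the choice of members set the 6 h high.

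Taken over single libraries, the members' median level, as log2 deviation from each member's own mean, was -1.01 to 0.26 at 1 h, 0.44 to 1.21 at 6 h and -0.95 to 0.50 at 24 h. Only CC 24 h replicate 2, at 0.50, lay above the lowest 6 h library, PT replicate 1 at 0.44. The summed level of the 57 members had a median of 911 CPM over the 18 libraries of 1 h, 2689 CPM over the 18 of 6 h and 844 CPM over the 17 of 24 h. In every 6 h library between 52 and 57 members were above their own mean.

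Few members passed the test between the 24 h and the 1 h harvest. In PC, edgeR's quasi-likelihood test called 0 members and 0 of 156137 transcripts between 24 h and 1 h. At an unadjusted p of at most 0.05 it had 3 members and 11353 transcripts. DESeq2's Wald test called 0 members, and 23 transcripts higher and 201 lower at 24 h. By edgeR the fold change was above 0 in 45 of 57 members in PC (median 0.20) and in 17 in PT (median -0.28). These signs hung on single replicates. In PC 54 members were above 0 without PC replicate 3, and 18 without PC replicate 2. In PT 42 were above 0 without PT replicate 3. In PT, where 4.26% of all tested transcripts rose and 4.04% fell at 24 h against 1 h, and of those of the same level range and bounds 4.19% and 4.41%, 1 member rose and 1 fell. The riser was scaffold11035, at 6.10, 7.32 and 6.48 CPM at 24 h, against 3.52, 2.37 and 3.22 CPM at 1 h (log2 fold change 1.10 ± 0.23, SE; edgeR, adjusted p = 0.00264).

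The faller, named with it because the count was small, was scaffold8922, at 3.34, 5.00 and 1.97 CPM at 24 h, against 4.93, 6.30 and 8.19 CPM at 1 h. Its groups overlapped by 1 library, and its log2 fold change was -0.93 ± 0.28 (SE; edgeR, adjusted p = 0.0345). Over the other fits its adjusted p was 0.0162 to 0.515. The call of scaffold11035 was lost without PT replicate 2. Sorted by C and CC, 1 member had a log2 ratio of 24 h over 1 h of at least 0.5 in both, 0 had at most -0.5 in both and 56 did neither. That ratio had the same sign in C and CC for 29 of 57 members.

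The size of the 6 h high in PC can be set beside that in CC, harvested with it, and that in C, harvested 7 days earlier. Over the 57 members, which are not independent and whose range the rule cut off at 1, the log2 ratio of 6 h over 1 h in PC had a Pearson r of 0.85 and a Spearman rho of 0.79 with that in CC. With that in C the values were 0.46 and 0.48. For 6 h over 24 h they were 0.77 and 0.71 with CC, and 0.37 and 0.30 with C. C and CC themselves had 0.47 and 0.48 for 6 h over 1 h. Other pairs harvested together had a Pearson r, for 6 h over 1 h and over 24 h, of 0.66 and 0.76 (P with C) and 0.67 and 0.60 (PT with CC). The rule had bounded P over C at 1 and 24 h. The difference between these values was not tested.

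Within an hour the members' level differed between replicate numbers, a pattern that was noticed after the values were seen and is described here with no test. At 1 h, replicate 3 stood above replicates 1 and 2 in all 4 treatments of the triggering set. The members' median level in it was 0.17 in PT, against -1.01 and -0.49 in replicates 1 and 2. In CT it was -0.14, against -0.40 and -0.60. In PC it was 0.26, against -0.90 and -0.35, and in CC -0.16, against -0.70 and -0.66. These 1 h libraries thus lay between the other 1 h libraries and those of 6 h.

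Member by member, replicate 3 of 1 h minus the mean of replicates 1 and 2 had a median of 0.87 in PT, 0.30 in CT, 0.87 in PC and 0.52 in CC on the log2 scale, and was above 0 in 55, 42, 49 and 48 of 57 members. Over the members, which share these libraries, the shifts had a Pearson r of 0.84 between PT and CC, 0.61 between CT and CC and 0.74 between PC and CC. The 316 transcripts lowest at 6 h were shifted the other way, by a median of -0.36 in PT, -0.28 in CT, -0.37 in PC and -0.06 in CC. Over the 20167 transcripts of the same level range and bounds the medians lay between -0.11 and 0.00. In the priming set, harvested a week earlier, replicate 3 of 1 h was shifted by a median of -0.03 in P and 0.07 in C over the members. The transcripts lowest at 6 h were shifted there by a median of -0.13 in P and -0.03 in C. What the replicate number stands for is not given in the labels, and its part in the shift was not tested.

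**Figure D5:**
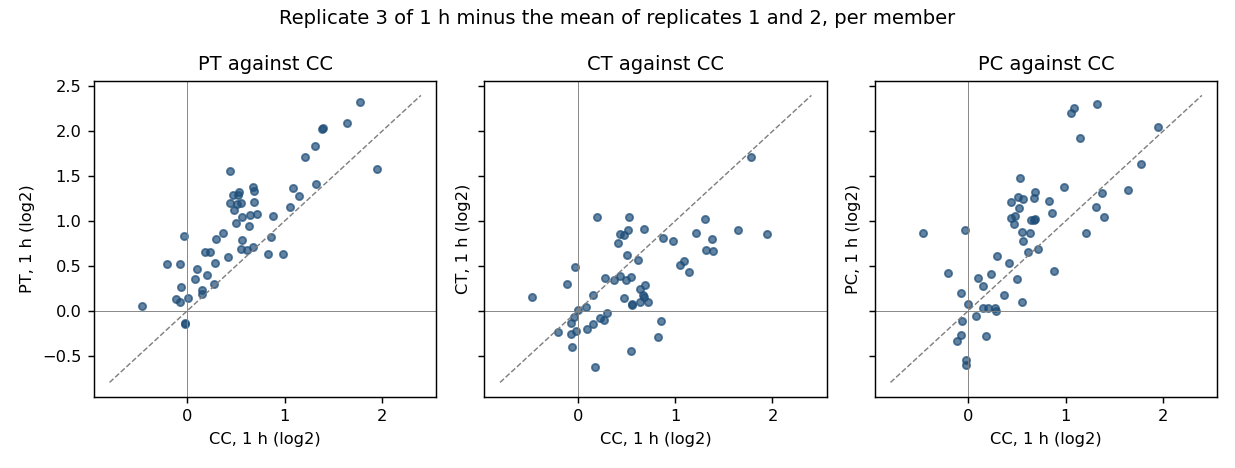
Replicate 3 of 1 h minus the mean of replicates 1 and 2, on the log2(CPM + 0.5) scale, for each of the 57 members in PT, CT and PC (y axes) against CC (x axis), with the line of equality dashed. On the y axes 55, 42 and 49 of 57 points lie above 0 in PT, CT and PC, and on the x axis 48.

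At 24 h the library that stood out was replicate 2. It exceeded the mean of the other libraries of its group by a median of 0.28 in PT, 0.60 in PC and 1.06 in CC, and in 54, 52 and 57 of 57 members. In CT, with 1 other library left, the median was 0.19. In the priming set replicate 2 of 24 h was shifted by a median of -0.02 in P, above 0 in 28 of 57 members. In C the median was 0.30, above 0 in 43. Over the 20167 transcripts of the same level range and bounds the medians were 0.02 in PT, -0.03 in PC and 0.04 in CC. In CT, P and C they were 0.13, -0.03 and 0.14. The transcripts lowest at 6 h had a median of -0.19 in PT, -0.61 in PC and -0.53 in CC, and of 0.22 in CT. Their medians in P and C were -0.08 and -0.002. The rule used medians of 3 libraries, and CC 24 h replicate 2 was among them. With CC 24 h replicate 2 left out, an alternative chosen after seeing the data, 62 transcripts met the rule, of which 49 were members.

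Treatment ratios beyond those in the rule had small medians, but single members passed 0.8 in size, the bound of the rule. PC over CC, simulated eggs of 7 days before against none, had median log2 ratios over the members of 0.19 (1 h), -0.03 (6 h) and 0.14 (24 h), with single members between -0.60 and 0.88. PT over CT had medians of -0.09, -0.12 and -0.12, with single members between -0.83 and 0.56. No member reached a ratio of 1 in either direction in these comparisons. CC levels had entered the choice, CT was tied to CC and PT to PC, so no test was made.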

How the data were processed

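The authors deposited raw read counts per assembled sequence, 1 column per library, per the file itself. The submitters' processing notes list CASAVA, a base caller, and Trimmomatic 0.33, a read trimmer. How reads were assembled, aligned and counted, and with or without strand, was not given in the sources used here. Near-identical or overlapping sequences may share reads, and several sequences may stem from 1 gene. Each column carries its library's number from the labels, and 0 columns were left unmapped. Replicates of a group differed by a chi-square per degree of freedom of at least 9.48. The members, the lists and the comparisons were chosen with earlier results of these data known.

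Levels are CPM with TMM factors over 53 libraries. Tests used edgeR 4.0.16 (glmQLFit and glmQLFTest, R 4.3.3) on the counts of the 35 triggering-set libraries without CT 24 h replicate 1, filtered with filterByExpr (minimum count 10, total 15), TMM-scaled, with 1 mean per group and Benjamini-Hochberg adjustment over 156137 transcripts. Each SE was taken as log2 fold change over the root of the F statistic. DESeq2 1.42.0 was an alternative. The procedure was tested on simulated counts with independent libraries. Deviations shared by same-numbered libraries were not part of that simulation, and no result here rests on it. Named transcripts were the first 2 by rank, the 2 called against both hours with the smallest larger p and the 2 with the lowest smaller fold in PC and in PT, and those behind small counts, the last chosen after their values were seen.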

Additional observations from a re-analysis of the deposited data

How the results depend on the processing

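All 57 fold changes of 6 h against 1 h and against 24 h in PC and PT were above 0 under every alternative run, except 6 h against 1 h in PT without PT replicate 2, where 55 were. C223139 had -0.0747 there and up to 1.50 with another replicate left out. Counts of called members moved more. With CT 24 h replicate 1 in the fit 23 and 11 rose in PC, and 0 fell at 24 h against 1 h in PT. With only the 2 compared groups these were 21, 42 and 0, and DESeq2's Wald test gave 38 for 6 h against 24 h in PC and 2 risers at 24 h against 1 h in PT; no filter gave 0 fallers there. Leaving out 1 PC or PT replicate gave 11 to 40 and 2 to 23 risers in PC, 9 to 41 and 13 to 46 in PT, and 0 to 1 riser and 0 to 1 faller at 24 h against 1 h in PT. Such fits also have fewer residual degrees of freedom. Over all tested transcripts and alternatives, 163 to 2513 and 41 to 1665 rose in PC, beside 1375 and 686, and 1152 to 7137 and 883 to 5949 in PT, beside 5410 and 4610.

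Same-numbered libraries of different hours had correlations between -0.32 and 0.26. For PT at 6 h against 1 h they were 0.18, 0.0991 and 0.178, and every other contrast included negative values. Within 1 h every same-numbered pair of PT, PC and CC had at least 0.305, while pairs with CT ran from -0.191 to 0.506. With the replicate block 42 and 28 members rose in PC, and 41 and 45 in PT, and it changed no call of a named transcript. Group means in place of medians left 30 of the members among 45 transcripts (30 of 53 also without CC 24 h replicate 2, tried after seeing the data), and leaving out CC 24 h replicate 2 alone left 49. The other ways of choosing kept 44 to 53. A list of 100 was not run, since 57 met the rule.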
